A study of Mus musculus with 8 samples.

Results

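MOF peaks that lay far from any active histone mark in the newborn mouse epidermis are described here. Of the 17546 MOF peaks deposited, 17287 were on chromosomes 1 to 19, and 2709 of those were members: they were chosen by a score below 8100 and by a distance of more than 50 kb, edge to edge, to the nearest H3K4me3 or H3K27ac peak. Members made up 15.4% of all MOF peaks and 28.9% of the 9378 mark-free MOF peaks below that score. The cells of every library were the whole epidermis of back skin, taken from wild-type newborns at day 0.5 after birth and dissociated to single cells, and the labels give no other allele or agent. The MOF library was made by ChIPseq, which enriches sheared, fixed chromatin with an antibody, and those of the marks by Cut&Run, where a nuclease tethered to an antibody releases the bound fragments. The series names 8 libraries for 6 antibodies, and lists of 4 were used here, 1 library each for MOF (17546 peaks, more than the number of MOF peaks the study itself gives, so possibly another or an unfiltered call), H3K4me3 (27039), H3K27ac (30736) and Rfx2 (337), so no value below has a replicate error and each describes these libraries. Intervals are 95% intervals that cover counting error over peaks, bases or genes only, and neighbouring peaks are not independent.

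MOF (KAT8) is the histone acetyltransferase that places acetyl groups on lysine 16 of histone H4, and it works within the MSL and NSL complexes. NSL is known for binding at the promoters of widely expressed genes. H3K4me3 is typical of active or poised promoters, and H3K27ac of active promoters and enhancers, so a region far from both is, by these marks, outside the active part of the genome of the tissue. Peak calling in such regions also depends on how well short reads can be placed, because mammalian genomes hold many copies of transposons, segmental duplications and simple repeats such as runs of A.

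Below, "near" peaks are the 6669 MOF peaks under the same score limit that overlapped no mark but lay within 50 kb of one, and "marked" peaks are the 7818 that overlapped a mark by at least 1 bp. The mark lists were first set against known genes of the tissue. H3K4me3 lay at the promoter of 9 of 12 keratinocyte markers, Krt1, Krt10 and Itga6 being those without it, and H3K27ac at 7 of 12. It lay at the promoter of 2 of 5 melanocyte, 1 of 4 Langerhans cell, 2 of 4 Merkel cell, 3 of 6 dermal fibroblast, 1 of 3 endothelial and 2 of 3 neuronal markers, and H3K27ac at 1, 0, 0, 1, 0 and 0 of them. No member lay at the promoter of any of these genes. The rule keeps members away from promoters with a mark, and only 39 of the 2709 members were centred in any promoter. The absence at these few genes therefore says little. The part of these cell types in the results was not tested.

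The sequences of a few members show what kinds of DNA the class holds. The first set gives the central 200 bases of the 5 highest-scoring members with few repeated words. In these peaks fewer than 10% of all 31-base words (every stretch of 31 bases along the peak) occurred elsewhere in the assembly. How well reads can be placed in them was not tested. Each sequence is the plus strand of GRCm38.p6 (mm10) as given by RefSeq, 5′ to 3′, and CpG dinucleotides are in capitals.
chr9:3258764-3258963: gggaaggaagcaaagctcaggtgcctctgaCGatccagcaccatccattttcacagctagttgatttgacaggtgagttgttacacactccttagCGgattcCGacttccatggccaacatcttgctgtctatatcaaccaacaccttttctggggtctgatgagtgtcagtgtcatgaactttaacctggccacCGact
chr19:49855171-49855370: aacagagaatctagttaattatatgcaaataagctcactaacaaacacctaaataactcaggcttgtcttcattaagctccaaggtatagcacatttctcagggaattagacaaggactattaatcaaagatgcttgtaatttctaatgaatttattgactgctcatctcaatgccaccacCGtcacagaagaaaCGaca
chr7:71411852-71412051: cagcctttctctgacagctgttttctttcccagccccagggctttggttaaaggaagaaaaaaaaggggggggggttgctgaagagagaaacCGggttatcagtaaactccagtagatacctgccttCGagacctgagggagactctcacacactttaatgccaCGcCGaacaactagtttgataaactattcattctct
chr10:11492090-11492289: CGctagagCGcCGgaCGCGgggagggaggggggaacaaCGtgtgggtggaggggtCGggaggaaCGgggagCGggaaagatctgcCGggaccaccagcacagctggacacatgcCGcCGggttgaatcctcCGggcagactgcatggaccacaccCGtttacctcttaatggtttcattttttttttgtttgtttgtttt
chr7:133572138-133572337: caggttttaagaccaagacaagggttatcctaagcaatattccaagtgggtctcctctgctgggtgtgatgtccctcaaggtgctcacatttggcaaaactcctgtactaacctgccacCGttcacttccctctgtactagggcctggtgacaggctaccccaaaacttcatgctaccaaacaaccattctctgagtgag

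The first and highest scored 4821 and held 4 CpGs, and the fourth, scored 1890, held 14 CpGs at 58.5% GC. All 5 were intergenic. The next sequence carries a run of A or T (in capitals), the feature whose share differed most between members and their flanks among those searched. It is the central 200 bases of the highest-scoring member with such a run, scored 7039, in an intron of Plcxd3.
chr15:4413890-4414089: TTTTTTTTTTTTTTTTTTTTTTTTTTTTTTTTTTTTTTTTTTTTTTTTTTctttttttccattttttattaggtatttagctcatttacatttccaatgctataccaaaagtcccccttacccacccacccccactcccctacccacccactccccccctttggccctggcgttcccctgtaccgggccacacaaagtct

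The remaining sequences are the highest-scoring members with the other features whose share in members differed from that in their flanks, with the match in capitals. The first has a CTCF match, the second a pair of overlapping ETS matches (CCGGAAGT, one on each strand), the third an X-box match and the fourth a GATA match (AGATAA, also on the minus strand). CTCF is the insulator protein that anchors chromatin loops, ETS factors bind many active promoters, X-boxes are the sites of RFX factors, and GATA factors direct lineage programs. The CTCF and GATA examples also end in a run of A.
chr1:194542801-194543000: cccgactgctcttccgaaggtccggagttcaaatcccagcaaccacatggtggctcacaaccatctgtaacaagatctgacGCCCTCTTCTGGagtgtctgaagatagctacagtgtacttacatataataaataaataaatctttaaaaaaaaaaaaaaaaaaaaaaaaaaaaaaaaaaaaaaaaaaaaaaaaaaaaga
chr8:20812550-20812749: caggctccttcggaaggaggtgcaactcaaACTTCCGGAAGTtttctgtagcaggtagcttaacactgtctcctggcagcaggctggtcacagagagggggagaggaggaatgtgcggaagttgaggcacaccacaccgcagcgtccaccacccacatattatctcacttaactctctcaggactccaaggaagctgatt
chr4:72126175-72126374: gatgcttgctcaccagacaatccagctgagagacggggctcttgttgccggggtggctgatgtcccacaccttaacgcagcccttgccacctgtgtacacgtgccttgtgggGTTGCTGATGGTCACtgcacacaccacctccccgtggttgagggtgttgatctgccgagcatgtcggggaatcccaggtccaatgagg
chr3:134502969-134503168: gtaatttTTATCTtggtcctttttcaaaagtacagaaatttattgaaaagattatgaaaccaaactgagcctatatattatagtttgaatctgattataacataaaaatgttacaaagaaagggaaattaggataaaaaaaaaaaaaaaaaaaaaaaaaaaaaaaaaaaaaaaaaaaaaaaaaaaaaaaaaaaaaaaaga

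The sequence more than 50 kb from every H3K4me3 and H3K27ac peak made up 1211 Mb, or 50.5% of the sequenced bases of chromosomes 1 to 19. It held 2.24 members per Mb (2.15 to 2.32). The 1154 Mb within 50 kb of a mark held 5.78 near peaks per Mb (5.64 to 5.92), and the 31.1 Mb under a mark held 251 marked peaks per Mb (246 to 257). The last value counts every peak that overlaps a mark by at least 1 bp, including any part outside it. It is therefore not like for like with the others. The median member lay 120273 bp from the nearest mark (115861 to 126380), 140061 bp from H3K4me3 and 163476 bp from H3K27ac. More than 100 kb separated 1595 members (58.9%) from a mark, and more than 1 Mb separated 57 (2.10%).

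Mark-free MOF peaks became sparser with distance through the threshold of 50 kb. There were 6.10 per Mb (5.88 to 6.33) within 10 kb of a mark, 6.02 (5.77 to 6.28) from 10 to 25 kb and 4.996 (4.75 to 5.25) from 25 to 50 kb. Members then numbered 3.59 per Mb (3.38 to 3.81) from 50 to 100 kb, 2.54 (2.39 to 2.71) from 100 to 250 kb, 1.51 (1.36 to 1.67) from 250 to 500 kb, 0.977 (0.836 to 1.14) from 500 kb to 1 Mb and 0.662 (0.502 to 0.858) beyond 1 Mb. From 10 kb to 1 Mb the intervals of successive bins did not overlap, whereas those of the first pair and of the last pair did. The makeup of the peaks moved with distance in repeated words and in A or T runs. The share of peaks with more than 50% of their 31-base words repeated was 17.95% (15.7 to 20.3) from 50 to 100 kb and 56.1% (42.4 to 69.3) beyond 1 Mb. A run of at least 20 A or T in the central 200 bases was in 2.87% (1.97 to 4.03) of the nearest bin and in 29.8% (18.4 to 43.4) of the farthest. The share in exons was 5.48% (4.21 to 6.98) and 0 of 57 (0 to 6.27), with intervals that overlap. Between them it did not fall steadily, with 2.36% from 250 to 500 kb and 4.14% from 500 kb to 1 Mb.

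**Figure D1:**
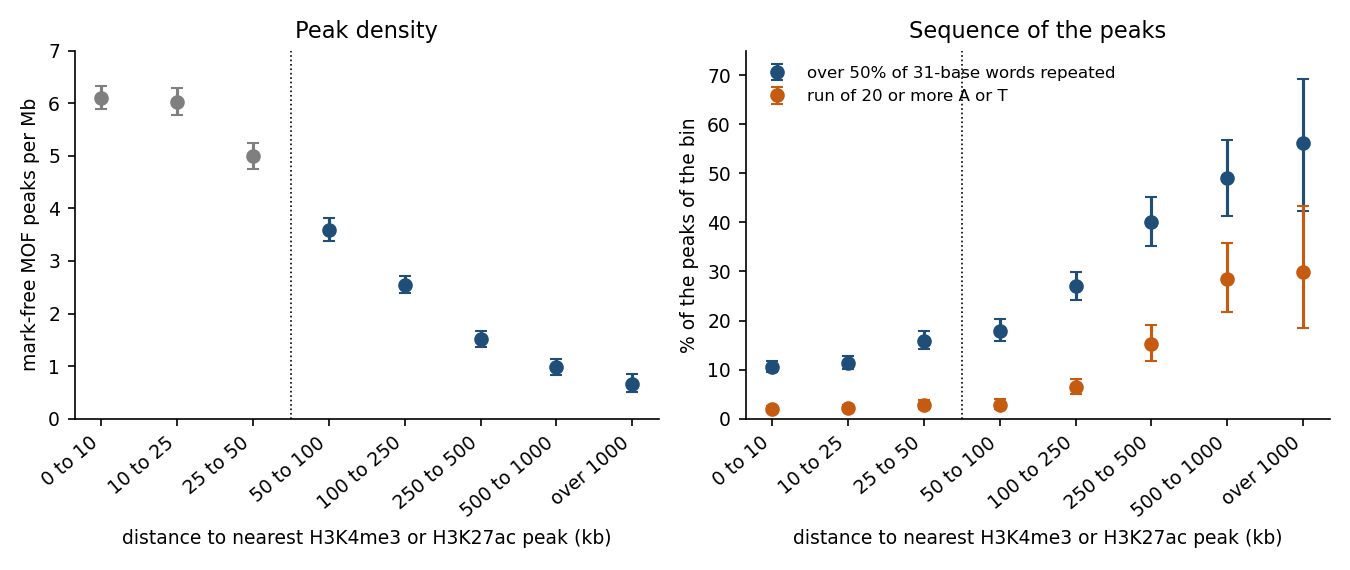
Mark-free MOF peaks per Mb of sequence (left) and the percent of those peaks with mostly repeated sequence or with a run of A or T (right), by distance to the nearest H3K4me3 or H3K27ac peak in kb. Points are values with 95% intervals, blue points on the left and all points right of the dotted line at 50 kb are members, and density falls from 3.59 to 0.662 per Mb over the member bins while the repeated share goes from 17.95% to 56.1%.

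The 3 members nearest to the distance limit lay 50017, 50028 and 50109 bp from a mark and had scores of 670, 285 and 721. The 3 MOF peaks just outside it lay 49921, 49919 and 49898 bp away and had scores of 825, 383 and 529. The 3 highest member scores were 7573, 7211 and 7098, and the 3 lowest scores of far peaks at or above the limit were 8142, 8741 and 9548. These values come from the rule and were not tested.

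Members were small. Their width ran from 200 to 4998 bp with a median of 324 bp (318 to 331), against 384 bp (377 to 393) in near and 902 bp (884 to 919) in marked peaks. A width of at most 250 bp was found for 24.8% of members, 10.4 percentage points more than for near peaks (8.54 to 12.2) and 22.3 points more than for marked peaks (20.7 to 23.99). The score, whose scale is not stated and which was used by the rule only as an upper limit, ran from 209 to 7573 with a median of 571 in members, 553 in near and 638 in marked peaks. Some values recurred. Of 425 distinct scores, the 10 commonest in members, led by 494 (260 members), 571 (251) and 423 (199), accounted for 60.6% of members (58.7 to 62.5), 33.9% of near (32.8 to 35.1) and 19.4% of marked peaks (18.6 to 20.3), where they were also the 10 commonest.

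By the centre of the peak, 1583 members (58.4%, 56.6 to 60.3) were intergenic, 962 (35.5%, 33.7 to 37.3) intronic, 125 (4.61%, 3.86 to 5.47) exonic and 39 (1.44%, 1.03 to 1.96) in a promoter, taken from 1 kb upstream to 100 bp downstream of the start of a curated RefSeq transcript. The far sequence itself was 69.1% intergenic, 29.4% intronic, 1.07% exonic and 0.456% promoter. Exons thus held 9.61 members per Mb (7.995 to 11.4) and promoters 7.06 (5.02 to 9.65), above introns with 2.70 (2.53 to 2.88) and the intergenic space with 1.89 (1.80 to 1.99). Exonic members were also richer in GC, with a median of 54.6% (52.8 to 56.3), than intronic ones, with 49.7% (49.3 to 50.1). Against near peaks, members were more often intergenic by 13.2 points (10.9 to 15.3) and less often exonic by 3.86 points (2.79 to 4.86). The sequence within 50 kb of a mark was itself less intergenic (46.8%) and more exonic (4.22%) than the far sequence. It held 5.59 near peaks per Mb of intergenic sequence and 11.6 per Mb of exons. The promoter shares of members and near peaks differed by -0.390 points, with an interval from -0.910 to 0.210 that includes 0. Marked peaks lay in promoters in 40.5% of cases. The median distance from a member to the nearest transcription start was 75104 bp (71257 to 79473), against 20039 bp for near and 377 bp for marked peaks. Because H3K4me3 is typical of promoters, the rule itself favours this order of the classes in promoter share and distance.

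**Figure D2:**
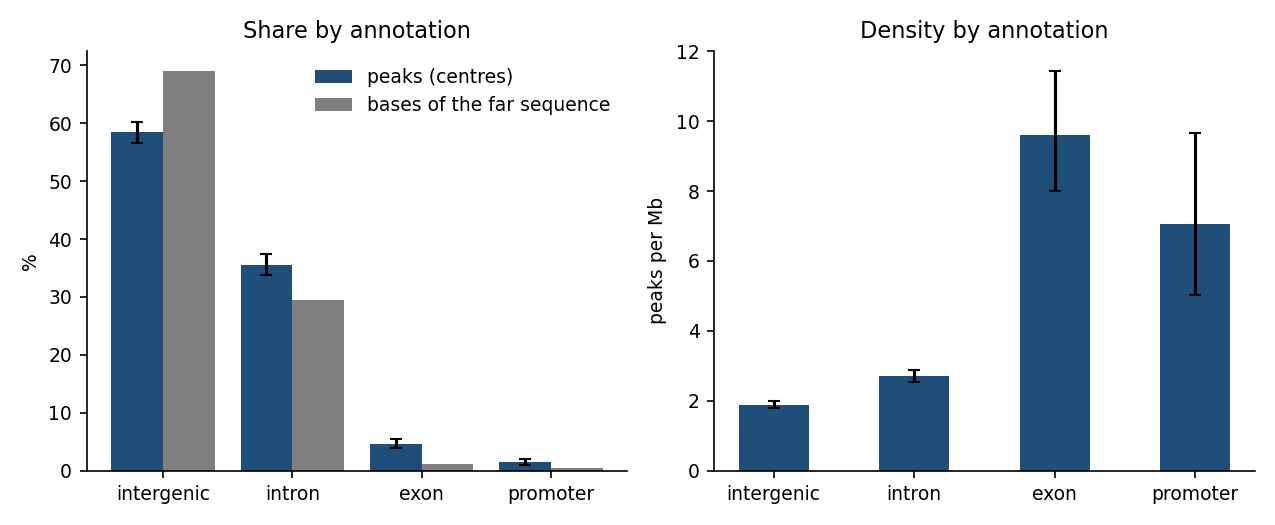
Percent of member centres and of far bases in each kind of annotation (left) and members per Mb of each kind (right), with 95% intervals on the member values. Exons and promoters hold 9.61 and 7.06 members per Mb, introns and intergenic sequence 2.70 and 1.89.

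The 39 promoter members had a median GC of 52.9% (50.3 to 56.6), and 3 of them had mostly repeated sequence. Of the 10 with the highest score, some lay at uncharacterized transcripts. The first, chr13:47667353-47667820 with a score of 1220, was centred 37 bp from the start of the noncoding transcript 4930471G24Rik. Col6a2, which encodes a chain of the microfibrillar collagen VI of connective tissue, had chr10:76623208-76623639 (score 1015, 65.5% GC against 43.3% in the flanks) centred 20 bp from its start, in the 5′ UTR. Hoatz, a gene named for ciliated and flagellated cells, had chr9:51102011-51102247 (score 1015) centred 51 bp from its start. Asphd2 had chr5:112395027-112395346 (score 840) and Gimap3, of a GTPase family of lymphocytes, had chr6:48771360-48772329 (score 964). The other 5 were at Gm9758 (1051), 1700092E19Rik (1015), Gm20744 (919), Mir466k (825) and Pramel24 (825). Further promoters, named as examples after their values were seen and with no list or count behind them, included Rims1 (active zone of synapses, score 651), Tph2 (serotonin synthesis, 736), Gria1 (an AMPA receptor subunit, 494) and Cacng3 (736), Runx1 (373) and Barhl1 (336).

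Of the 125 exonic members, 95 were centred in coding exons, 17 in 3′ UTRs, 8 in 5′ UTRs and 5 in exons of noncoding transcripts. The 10 with the highest scores, named after their values were seen, fell into repeated and unrepeated loci, with the tenth (Angpt1) tied with Trpc7 at 919. Gm4303 (2505), Gm4302 (2119) and Gm4305 (1800), neighbouring genes on chromosome 10, and Gm51573 (1642) on chromosome 8 held members in which 96.5% to 100% of the words were repeated, and Zfp992 (2050) held one with 88.9%. The protocadherin gene Pcdha10 had a member scored 1659 with 89.9% repeated words. The co-repressor gene Tle1 had one of 1116 with 13.9%. Members with 0% repeated words lay in the coding exon of Twist1, a basic helix-loop-helix factor of mesenchyme (chr12:33957467-33958848, score 979, 71.1% GC), in a coding exon of Atxn1 (chr13:45567989-45568310, score 927) and in the 5′ UTR of Angpt1, a ligand of the endothelial receptor Tie2 (chr15:42676222-42676989, score 919). Among the other exonic members were those at the transcription factor genes Nkx2-1 (522), Pax9 (339), Pdx1 (275), Barhl2 (346), Prrx1 (651), Nr2e1 (677) and Neurod6 (651), named as examples after their values were seen and not from a list, so that no count of such genes was made. Pseudogenes held 2.62% of members (2.05 to 3.29) and made up 1.08% of the far bases.

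Members were local peaks of GC. Their median GC was 50% (49.8 to 50.2), against 42.0% (41.8 to 42.2) in their own flanks from 2 to 5 kb on either side, and 2416 of 2709 (89.2%, 88.0 to 90.3) had more GC than their flanks. The share among near peaks was 89.6% (88.9 to 90.3), a difference of -0.439 points with an interval from -1.86 to 0.907, and that among marked peaks was higher, 97.3%. In windows of 200 bases taken every 10 kb of the far sequence the median GC was 39.5%, and 9.39% of those windows reached 50% GC, against 53.0% (51.1 to 54.9) of the central windows of members. CpG dinucleotides were rare relative to C and G content in members, with a median ratio of observed to expected of 0.216 (0.209 to 0.224), slightly above the 0.172 (0.169 to 0.175) of their flanks. In marked peaks the ratio was 0.637 (0.627 to 0.645). It was 0.413 (0.340 to 0.479) in exonic and 0.331 (0.243 to 0.468) in promoter members.

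**Figure D3:**
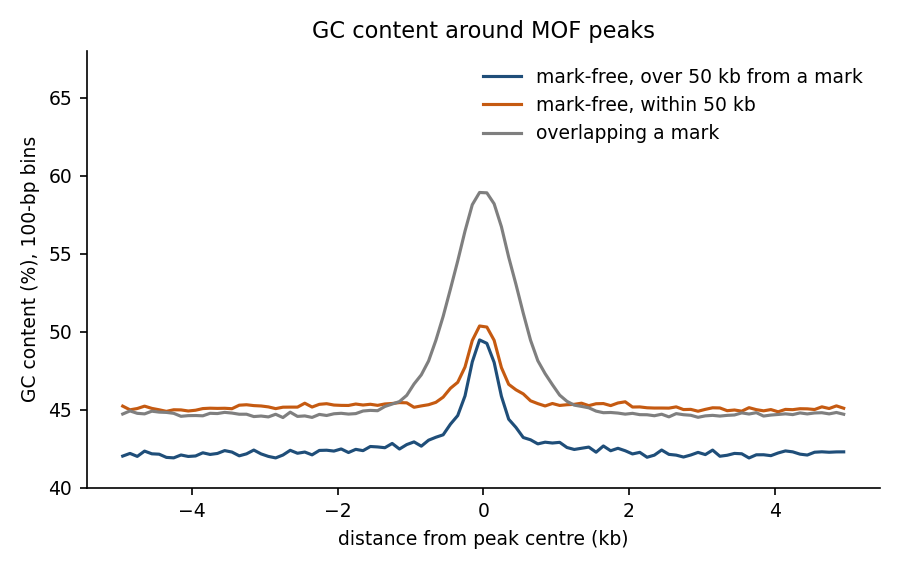
GC content in bins of 100 bp by distance from the peak centre in kb, averaged over members (mark-free, over 50 kb from a mark), near and marked MOF peaks. The central 200 bp average 49.4%, 50.3% and 58.9% GC, against 42.2%, 45.1% and 44.8% at 4 to 5 kb.

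The density of members followed GC on a larger scale too. Windows of 100 kb with at least 50 kb of far sequence were ranked by the GC of those bases, and 11791 of them held 2285 members. Members per Mb rose from 0.836 (0.722 to 0.962) in the quintile with the least GC through 1.10, 1.45 and 2.35 to 4.95 (4.65 to 5.27) in the quintile with the most, 5.93 times as many. By the share of soft-masked bases (sequence that RefSeq marks as repeated), density went from 3.91 (3.65 to 4.18) in the least masked quintile to 1.41 (1.26 to 1.57) in the most masked. Among chromosomes it ranged from 1.58 per Mb (1.33 to 1.87) on chromosome 3 to 2.95 (2.51 to 3.44) on chromosome 13. The second highest, chromosome 11 with 2.79 (2.32 to 3.33), did not differ from chromosome 13 beyond its interval.

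A part of the class was repeated sequence. More than 50% of the 31-base words occurred elsewhere in the assembly in 734 members (27.1%, 25.4 to 28.8), against 12.1% (11.3 to 12.9) of near and 3.06% (2.69 to 3.46) of marked peaks. The differences were 15.01 points (13.2 to 16.9) and 24.04 points (22.3 to 25.8). In the central 200 bases the share was 27.7%, and in windows of the same length 5 kb away it was 18.3% (17.2 to 19.3), a difference of 9.46 points (7.50 to 11.5). Whole members exceeded their flanks from 2 to 5 kb by 12.5 points (10.6 to 14.4), but those flanks are longer than most members, so these shares are not like for like. Conversely 1472 members (54.3%, 52.4 to 56.2) had under 10% repeated words. The median word of the peak occurred 1 time in 1975 members, 2 to 9 times in 305, 10 to 99 times in 181 and at least 100 times in 248, and these 4 groups had median scores of 571, 651, 736 and 825. Among quintiles of the members by score, the mostly repeated share was 19.1% (16.2 to 22.4) in the lowest and 51.6% (47.1 to 56.0) in the highest. In 1 member, chr5:60042811-60043197 with a score of 5594, 40.9% of the words also occurred in the mitochondrial genome.

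**Figure D4:**
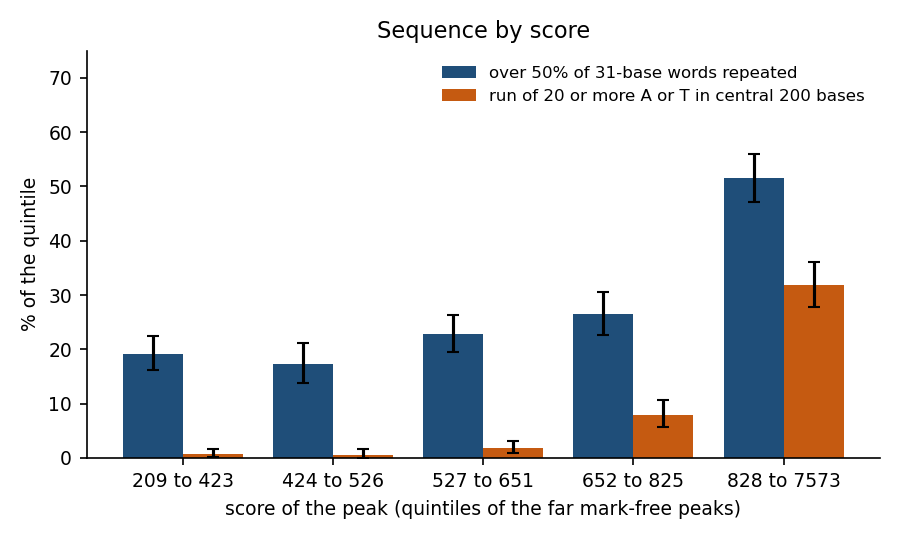
Percent of members with more than 50% repeated 31-base words (blue) and with a run of at least 20 A or T in the central 200 bases (orange), by quintile of the MOF score of the members, with 95% intervals. The first goes from 19.1% in the lowest to 51.6% in the highest quintile, and the second from 0.617% to 31.8%.

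The 10 members with the highest scores were mostly repeated, with 72.4% to 100% repeated words. The highest, chr3:58271552-58271789 (7573), had a median of 3654 copies per word, and chr12:41777890-41778124 in an intron of the mitochondrial peptidase gene Immp2l (7098) and chr17:57855940-57856171 in an intron of the contactin-associated gene Cntnap5c (5907) had 3395 and 3396.5. The intronic member of the bone morphogenetic protein gene Bmp5, chr9:75808325-75808550 (6340), had 740.5. Those at chr4:42384626-42386157 (7211), chr4:42377729-42380289 (6158) and chr10:100356613-100357252 (6800) had 35, 28 and 7 copies. The other 3, chr15:4413872-4414108 in Plcxd3 (7039), chr3:44023005-44023346 (6826) and chr12:88146744-88147088 (5988), held runs of 61, 72 and 64 A or T. In comparison, the highest score of a member with under 10% repeated words was 4821. The next was 2375, in a member that held a run of 56 A or T.

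Among the motifs and simple repeats searched, runs of A or T differed most from the flanks. A run of at least 20 lay in the central 200 bases of 218 members (8.05%, 7.05 to 9.14), against 17 of 5418 windows of the same length 5 kb to either side (0.314%), a difference of 7.73 points (6.75 to 8.82). Of 120942 windows across the far sequence, 0.380% held one. The share was 2.25% in near and 0.627% in marked peaks, so that members exceeded near peaks by 5.80 points (4.76 to 6.93). Among windows with 45% to 55% GC, where 2 of 1645 members and 33 of 28888 far windows held a run, the difference was 0.00735 points (-0.0922 to 0.330). A long run lowers the GC of its own window, so this limit left out most windows with a run. That difference therefore says little about runs. Over the whole peak, 264 members (9.75%) held such a run. They had a median score of 1116 against 571 in the other 2445, a median width of 211 bp against 336 bp, and a median GC of 37.2% (36.0 to 37.8) against 50.5% (50.3 to 50.7). None of the 264 was exonic. Of the members without a run, 94.8% had more GC than their flanks, and of those with one, 36.7%.

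The runs were long. All 25777 runs of at least 20 A or T in the far sequence were listed, and the share overlapped by a member was 0.135% (0.0789 to 0.217) for 20 to 24 bases, 0.883% for 35 to 39, 3.20% (2.14 to 4.59) for 40 to 44, 17.7% (14.0 to 21.9) for 45 to 49, 48.6% (41.0 to 56.2) for 50 to 54 and 90.7% (77.9 to 97.4) for 55 to 59. Of the 14 runs of 60 or more, members overlapped 9, and all 14 were overlapped once the far MOF peaks at or above the score limit were counted. Near a mark, 132 of 378 runs of at least 45 (34.9%, 30.1 to 39.96) had a mark-free or other MOF peak below the score limit, against 200 of 611 (32.7%, 29.02 to 36.6) in the far sequence, a difference of -2.19 points with an interval from -8.30 to 3.82. For runs of 20 to 44 bases the share was 0.597% (0.522 to 0.680) near a mark and 0.346% (0.277 to 0.426) in the far sequence, with intervals that do not overlap. The median score was 976 (825 to 1015) for members whose longest run had 20 to 44 bases, 919 (825 to 1015) for 45 to 49 bases, 1116 (1015 to 1435) for 50 to 54 and 2313.5 (2010 to 2627) for 55 or more, so that it did not go up with length below 50 bases.

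The runs also sat at one side. Where the longest run was of A on the plus strand (143 members), it lay right of the peak centre in 127 (88.8%, 82.5 to 93.5), at a median of 70.5 bp from it and with 10 bp between its end and the edge of the peak. Where it was of T (121 members), it lay right of the centre in 10 (8.26%, 4.03 to 14.7), at a median of -71 bp. The peak therefore extended mainly to the 5′ side of the A run on whichever strand the run was read, as in the Plcxd3 sequence above, which opens with its run of T.

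**Figure D5:**
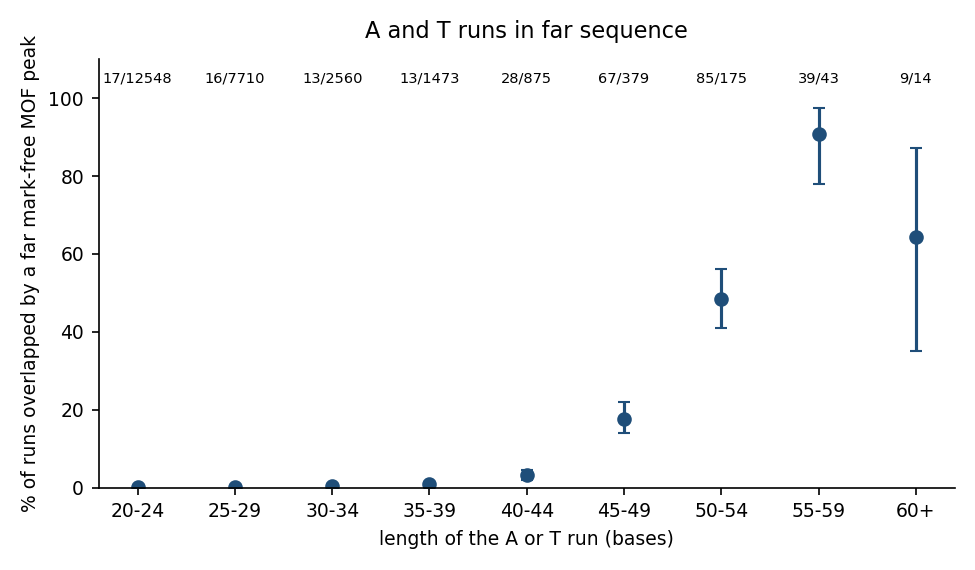
Percent of A or T runs in the far sequence that a member overlaps, by run length in bases, with 95% intervals and the counts (overlapped over all runs) above each point. The share is at most 3.20% below 45 bases and 90.7% at 55 to 59 bases.

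Of the transcription factor motifs searched on both strands in the central 200 bases, CTCF matches were more frequent in members than in their flanks, with 65 members (2.40%, 1.86 to 3.05) against 0.794% of the flank windows and 0.624% of the far windows, a difference from flanks of 1.61 points (1.02 to 2.28). Among windows with 45% to 55% GC, the member share of CTCF was 2.61% and that of far windows 1.13%, a difference of 1.48 points (0.802 to 2.38). Near peaks had more, 4.47%, and the difference of members from them was -2.07 points (-2.80 to -1.27). Of the 65, 50 had under 10% repeated words and their median score was 571. ETS matches (CCGGAAGT) were in 11 members (0.406%), 0.277 points above flanks (0.0511 to 0.603), and X-box matches in 9 (0.332%), 0.221 points above flanks (0.0170 to 0.525). For the X-box the interval against far windows of like GC included 0 (-0.313 to 0.241). The GATA match (AGATAA) was less frequent in members, 6.83% against 12.3% in flanks, a difference of -5.43 points (-6.69 to -4.11), and within like GC its difference of -1.23 points had an interval from -2.40 to 0.140. Runs of TA were in 0 members and 12 flank windows.

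For AP-1 (TGANTCA), the site of Fos and Jun factors active in epidermis, the shares were 5.57% in members and 5.96% in flanks, a difference of -0.388 points (-1.43 to 0.718). TEAD (GGAATG) matches were in 325 members and in 11.2% of the flank windows, with an interval of the difference from -0.663 to 2.31, and E-boxes (CANNTG) were in 67.3% and 66.9%, from -1.81 to 2.52. The p63 motif, bound by the master regulator of stratified epithelia, was in 8 members (0.295%) and 8 flank windows (0.148%), from -0.0567 to 0.443. A CRE match (TGACGTCA) was in 6 members, runs of CA in 2.62% and of GA in 0.554%, and telomere-like pairs in 2, each with an interval of the difference from flanks that includes 0. So did the REST motif, the site of a repressor of neuronal genes, which was in 3 members (0.111%, 0.0228 to 0.323), 2 flank windows and 4 of the 120942 far windows (0.00331%). The members were chr15:83879898-83880218 (score 375), chr2:179193424-179194145 (300) and chr3:31309004-31309242 (423). A match is a description and not a site of binding, and the matches of different motifs can share bases.

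No member overlapped an Rfx2 peak: 0 of 2709, which allows a share of up to 0.111% by a limit of 3 counts and up to 0.136% by the exact interval. The nearest Rfx2 peak was 51707 bp away. Of near peaks 0 of 6669, and of marked peaks 165 of 7818 (2.11%, 1.80 to 2.45), overlapped one. Of the 337 Rfx2 peaks, 1 lay more than 50 kb from both marks, so the choice of members left almost no Rfx2 peak to overlap.

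Most members stood alone. Another member lay within 10 kb of 256 (9.45%, 8.37 to 10.6), and 13 groups of 3 or more members spaced that closely held 48 members. In 11 of the 13 groups the median member had over 50% repeated words. The 5 largest were chr10:100330911-100357252 (5 members, scores from 1773 to 6800, at Gm4301, Gm4302, Gm4303 and Gm4305), chr8:20034809-20055650 (5 members, 536 to 1252), chr1:85269953-85300033 (5 members, 637 to 738, at C130026I21Rik and Gm38510), chr14:43269332-43293768 (5 members, 299 to 788, at Gm8127 and Gm9732) and chr1:85483851-85499918 (4 members, 768 to 1620). Their median repeated share was 87.3% to 100%, with 7 to 11 copies per word. The megabase of chromosome 1 from 85 to 86 Mb held 29 members, the most of any.

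The widest members were all intergenic and held much repeated sequence. They were chr8:55345825-55350741 (4917 bp), chr10:3111343-3115066 (3724 bp, score 3715), chr8:55120417-55123628 (3212 bp) and chr15:91907213-91910334 (3122 bp), with 82.5% to 97.7% repeated words, and the widest, chr18:3115476-3120473 (4998 bp), with 59.5%. The 5 farthest from a mark all lay on chromosome 15. The farthest, chr15:18524859-18525280 (score 1326), was 4059186 bp from a mark and had 57 copies per word. The others were chr15:16951490-16951750 (357), chr15:47539466-47540221 (2755), chr15:47384374-47384694 (294, 6.53% repeated words) and chr15:48620745-48620954 in an intron of Csmd3 (919, with a run of 51).

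Members lay in 851 of the 6958 genes that had any far sequence (12.2%), and 196 genes held more than 1. Genes with a member were long, with a median of 182 kb against 15.4 kb. Of genes under 100 kb 4.96% held a member, of those from 100 to 500 kb 28.4%, and of those of 500 kb or more 71.4%. Per Mb of far sequence the values fell instead, 3.99 (3.52 to 4.49), 3.32 (3.06 to 3.59) and 2.03 (1.79 to 2.29), though the intervals of the first pair overlap. Outside genes the density was 1.91 (1.82 to 2.01). The longest genes did not differ from the space outside genes beyond these intervals. The genes with the most members were Gm38510 (12 in 154 kb, in the repeated group on chromosome 1), the long noncoding RNA gene Snhg14 of the imprinted Prader-Willi region (8), the cadherin gene Cdh13 (7), the proteoglycan gene Spock1 (6) and the adhesion gene Sdk1 (6). Atxn1, Agap1, Bcas3, Csmd2 and Asic2 held 5 each, at 24.1, 19.8, 18.7, 8.75 and 4.59 members per Mb of far sequence.

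Gene families were taken by symbol, and their members set against their own far sequence. Cadherins and protocadherins, which join cells, had members in 19 of 42 genes with far sequence, 23 members in all or 4.03 per Mb (2.55 to 6.04). The overlapping Pcdha genes share their members, so Pcdha1 and Pcdha2 with 4 each are not independent of the rest. Zinc finger protein genes held 14 members in 13 of 38 genes, 5.32 per Mb (2.91 to 8.92), with Zfp423 holding 2. Neuronal adhesion genes held 30 members in 19 of 32 genes, 1.12 per Mb (0.754 to 1.60), among them Csmd2 (5), Ntm (4) and Dscam (3). This was below the 2.24 per Mb of all far sequence, while the intervals of glutamate and GABA receptors, with 17 members in 13 of 31 genes or 1.78 per Mb (1.03 to 2.84), and of potassium channels, with 13 members in 9 of 41 genes or 1.98 per Mb (1.05 to 3.38), include it. Olfactory receptors held 2 members in 2 of 938 genes (Olfr1033 and Olfr521), or 1.42 per Mb (0.172 to 5.14), and vomeronasal receptors 2 in 2 of 314 (Vmn2r73 and Vmn2r96), or 0.659 (0.0798 to 2.38), and both intervals include 2.24. The 61 defensin genes and the 14 genes of the cornified envelope with far sequence held 0, but had only 0.153 and 0.0293 Mb of it, which allows up to 24.1 and 126 per Mb. None of the 54 keratin genes had any far sequence.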

How the data were processed

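MOF ChIPseq and Cut&Run of H3K4me3, H3K27ac and Rfx2 were done on whole newborn epidermis (wild type, postnatal day 0.5). Alignment (Bowtie2, mm10) and peak calling (MACS2, library by library) were done by the authors. The methods name neither an input or IgG control nor excluded regions. The MOF list was deposited with a score per region of unstated scale, with the start and end of an inner span and a number of blocks. The Rfx2, H3K4me3 and H3K27ac lists were deposited with the fold enrichment (a ratio) and the −log10 q-value of the authors' peak caller. No list gives read counts, and the sequencing depth that the study states for its libraries was not used here. The MOF list is longer than the peak number the study gives, so it may be a different or unfiltered call, on which every count of members rests. The H3K4me3 list is attached by the labels to the repeat library, but its name lacks the mark of a repeat.

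Distances ran from edge to edge. Sequence, soft-masking and curated RefSeq transcripts were those of GRCm38.p6. Words of 31 bases were counted on both strands over the assembly. Flanks lay 2 to 5 kb to either side. Shares carry exact (Clopper-Pearson) intervals, counts exact Poisson intervals, differences Newcombe intervals and medians order-statistic intervals (scipy 1.17.1, numpy 2.4.6). The distance, word-count and interval steps were tested on simulated data. With 1 library per antibody no test across replicates was possible, and p-values were not computed.

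Members, gene lists and motifs were chosen with earlier results of these data known. Named are the 10 highest-scoring, 5 widest and 5 farthest members, the 10 highest-scoring promoter members, the 10 genes and 5 groups with the most members, and 3 peaks on each side of each threshold. Any other item was named after its values were seen. The comparison by distance, the length and position of A runs, the recurring scores and the pseudogenes were also added after seeing the data. Other libraries of the series were not used here.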

Additional observations from a re-analysis of the deposited data

How the results depend on the processing

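Every result rests on 1 library per antibody, so the size of error between libraries is unknown, and the lists give no read depth. No paired analysis was possible because there was a single list per antibody. Of 92 recomputed values, 48 met the reported result, which means a share or median inside the reported interval, a count within 1.5 times, or, for differences from flanks and the share with more GC than flanks, the same sign with 0 (for GC, 50%) outside the interval. The sizes of such differences could still move. That for A runs went from 5.29 points (top 50% of mark peaks) to 15.5 (top 50% of MOF peaks), and was 0.0340 points (-0.302 to 0.510) among members with under 10% repeated words, since a long run consists of repeated words. It was likewise near 0 among windows of like GC, since a long run lowers the GC of its own window and few such windows remain. For GATA the interval within like GC also includes 0. In the other alternatives CTCF ranged from 1.29 to 3.25 points and GATA from -9.93 to -4.04. The excess of repeated words in whole members was 14.4 points with flanks at 10 to 13 kb, which are also longer than most members. Rfx2 overlap was 0 in each alternative, which says little because nearly all Rfx2 peaks lie near marks.

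With a distance of 25 kb there were 4268 members at 2.80 per Mb, in 1440 genes, 54.3% intergenic and 5.48% exonic, with a median width of 342 bp, 23.01% mostly repeated and 10.7% within 10 kb of another. With 100 kb there were 1595 at 1.77 per Mb, in 437 genes, 64.6% intergenic, with a median width of 310 bp and score of 604, 33.5% mostly repeated. Counting only the 50% of mark peaks with the highest significance gave 4714 at 3.07 per Mb, in 1496 genes, 54.3% intergenic, 354 bp wide, 21.2% mostly repeated and 11.1% within 10 kb of another. The top 50% of MOF peaks by score left 1301 at 1.07 per Mb, in 464 genes, with medians of 285 bp and 825, 35.2% mostly repeated and 7.30% within 10 kb. Members with under 10% repeated words numbered 1472, or 1.22 per Mb of all far sequence, 49.2% intergenic and 6.66% exonic, with medians of 349 bp and 545 and 6.86% within 10 kb. Counting all annotated transcripts gave 50.2% intergenic and 6.46% exonic. With gaps of 5 and 50 kb in place of 10 kb, 4.43% and 27.1% had a neighbour. Without members that hold a run, an alternative chosen after seeing the data, density was 2.02 per Mb, the median width 336 bp and the mostly repeated share 24.3%. These changes follow from which peaks and bases each alternative counts.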

Other observations

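Members were taken from chromosomes 1 to 19 only. By the same limits, the X chromosome held 57 far mark-free MOF peaks in 117 Mb of far sequence, or 0.489 per Mb (0.370 to 0.633), and the Y chromosome 36 in 85.0 Mb, or 0.423 per Mb (0.297 to 0.586). Both intervals lie below that of members, 2.24 per Mb (2.15 to 2.32). Their median widths were 216 bp and 213 bp, against 324 bp for members. The libraries' copy number of the X and Y chromosomes was not known from the lists.

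A further 12 far mark-free peaks of chromosomes 1 to 19 scored 8142 or more and were therefore not members. The highest, chr7:104427856-104428214, scored 16721 at 25.1% GC. The highest with under 10% repeated words, chr1:100180103-100180375, scored 9733. In 10 of the 12 more than 50% of the words were repeated, with a median of up to 15741 copies per word, and none of the 12 held a word of the mitochondrial genome.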
